A study of Mus musculus with 2 samples.

Results

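The genes described here are 33 members of the TGF-beta, BMP and FGF signalling pathways, a list of ligands, receptors, Smads and extracellular antagonists drawn up for this description. They were found by their gene symbol on chromosomes 1 to 19 in 4 lists of regions enriched for methylated DNA, and each region was counted once per list. Of the 33, 22 were named in at least 1 list, among 12685 autosomal genes named in all. The study enriched methylated genomic DNA with a commercial kit and sequenced it (MBD-seq, for the methyl-binding domain that captures it) from the developing brain of mice of the ICR strain at E16. It had 1 library of the V/SVZ, the germinal layer rich in neuronal progenitors, and 1 of the cortical plate (CP), the layer of differentiating neurons, each dissected by hand. The labels give no other difference between the groups, and no number of embryos. The files hold no expression values, so the dissection was not checked against cell type markers. With 1 library per tissue no test between the tissues was possible, and every difference below is one between these libraries, with no replicate check.

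Ligands of the TGF-beta and BMP family bind pairs of serine-threonine kinase receptors. The activated receptors phosphorylate the receptor-regulated Smads, which join Smad4 and enter the nucleus, while Smad6 and Smad7 inhibit the pathway and the secreted proteins noggin and chordin hold BMPs away from their receptors. Secreted FGFs act through receptor tyrosine kinases, and FGF signalling is known for keeping cortical progenitors dividing, whereas BMP signalling is known for promoting astrocyte fate later in development. Fgf12 and Fgf14 belong to the FGF homologous factors, which are not secreted and bind voltage-gated sodium channels in neurons.

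2 of the lists give regions of 1 tissue enriched over a control that the labels do not describe (control peaks), and 2 give regions of 1 tissue enriched over the other tissue (direct peaks). The unit of each value is the tag, an aligned read counted in the peak and not scaled by depth. Tags in autosomal control peaks summed to 974963 for V/SVZ (50667 peaks) and to 1628027 for CP (50968 peaks). At autosomal V/SVZ control peaks that overlapped a CP control peak, the median CP to V/SVZ tag ratio was 1.82, and the total depth of each library is unknown. A ratio below is therefore read beside 1.82, not beside 1. Its exact binomial 95% interval covers counting error only and treats reads as independent molecules. By the authors' false discovery rate, all CP over V/SVZ peaks stood at 100%, and at most 50% was given for 7 of the 31 V/SVZ over CP peaks of these genes, against 27.5% of all autosomal peaks of that list.

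Methylated regions of the pathway genes lay mainly inside the genes, and none was counted over a transcript start. A region listed for several transcripts of a gene was placed by the first one listed, so starts of other transcripts were not checked. The genes had 66 V/SVZ control peaks and 65 CP control peaks. Of these, 52 (78.8%) and 46 (70.8%) were inside a transcript, beside 66.7% and 65.3% of all peak and gene pairs on the autosomes. Fgf12 had the most control peaks, with 9 in each tissue. Next came Bmp7 (9 in V/SVZ and 6 in CP), Smad1 (6 and 8), Bmp6 (8 and 4) and Fgf14 (5 and 7). These counts are not scaled by gene length. Control peaks of Fgf12 ran from 28176572 to 28644347 on chromosome 16, while the transcripts of Bmp7 and Smad1 spanned 70.6 and 61.1 kb. Lengths could not be placed for Fgf12, Bmp6 and Fgf14, so the order per kb is not given. The tags per peak were ordinary for these libraries: the median was 11.5 in V/SVZ and 17 in CP, beside 11 and 17 over all autosomal peaks.

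**Figure D1:**
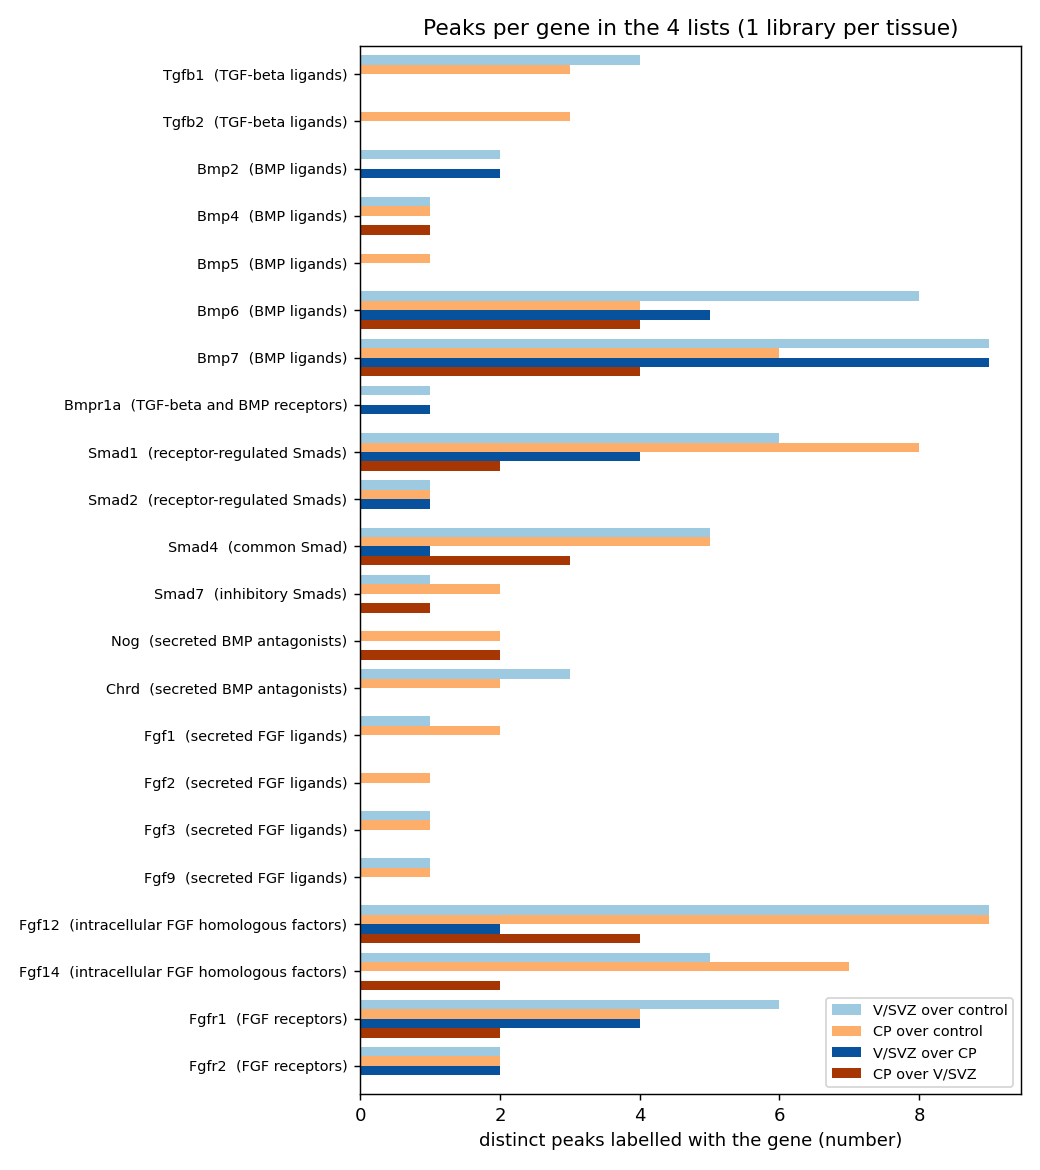
Number of distinct peaks (x axis) labelled with each of the 22 genes (y axis, with role) in the 4 lists, 1 bar per list. Fgf12 and Bmp7 reach 9 control peaks in V/SVZ, while Tgfb1, Chrd, Fgf1, Fgf3 and Fgf9 have control peaks in both tissues and no direct peak.

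Peaks within 1 kb upstream of a transcript start were found at 3 genes, Tgfb1, Chrd and Fgf1, and in both tissues each time. These were 4.55% of the 66 V/SVZ and 4.62% of the 65 CP control peaks. Over all autosomes, 1.53% and 1.76% of peak and gene pairs lay over a start or within 1 kb upstream. With 3 peaks per tissue the difference was not tested. The peak upstream of Tgfb1, which encodes the ligand TGF-beta 1, held 82 V/SVZ tags (chromosome 7, 26470900 to 26471418, mm9) and 146 CP tags, a ratio of 1.78 (exact 95% interval 1.35 to 2.36). Its edge lay 602 bp from the start in V/SVZ and 502 bp in CP. The peak upstream of Chrd, the gene for chordin, held 6 V/SVZ tags (chromosome 16, 20732044 to 20732336) and 18 CP tags, a ratio of 3 (1.14 to 9.23). The peak upstream of Fgf1 held 12 V/SVZ tags (chromosome 18, 39079171 to 39079488) and 34 CP tags, a ratio of 2.83 (1.43 to 6.01). CP held more tags at all 3, and all 3 intervals hold the median ratio of 1.82; none of the 3 genes had a direct peak in either direction.

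A peak just inside a transcript is given no distance in the files, so starts were also placed from the distances of upstream peaks, which was possible for 9 genes. The nearest peak edge of any list lay 502 bp from the start in Tgfb1, 604 bp in Fgf1, 842 bp in Chrd, 1777 bp in Smad7, 2545 bp in Smad1 and 3427 bp in Fgf9. In Bmp7, Tgfb2 and Smad4 it lay 4918, 4944 and 4976 bp away. No peak overlapped any of these 9 starts. Over all autosomes, 0.972% of V/SVZ and 1.17% of CP control peak and gene pairs overlapped a start, which over 66 and 65 peaks comes to under 1 peak.

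The DNA just before a start is shown because the listed regions stopped short of these 9 starts. Methyl-binding capture needs CpG sites, and each sequence below has its CG pairs in capitals. The sequences are the 250 bases upstream of the RefSeq start in GRCm38.p6, a later build than the mm9 of the peaks, and positions were not carried over between the builds. They are given 5′ to 3′ on the gene's strand. An upstream control peak was shared by both tissues in 7 genes, and the sequence is shown for 4 of them.
Tgfb1 (chr7:25686752-25687001, plus strand): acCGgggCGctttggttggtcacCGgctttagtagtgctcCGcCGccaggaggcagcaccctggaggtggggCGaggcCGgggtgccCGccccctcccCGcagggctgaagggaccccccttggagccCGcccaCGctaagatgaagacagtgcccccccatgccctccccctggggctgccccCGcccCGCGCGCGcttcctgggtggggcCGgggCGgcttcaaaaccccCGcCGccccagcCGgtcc
Chrd (chr16:20732877-20733126, plus strand): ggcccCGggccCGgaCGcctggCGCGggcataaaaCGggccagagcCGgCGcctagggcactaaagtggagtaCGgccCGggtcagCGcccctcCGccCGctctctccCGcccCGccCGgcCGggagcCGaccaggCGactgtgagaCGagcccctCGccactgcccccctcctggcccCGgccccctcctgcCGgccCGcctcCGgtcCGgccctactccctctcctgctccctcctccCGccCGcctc
Smad1 (chr8:79399429-79399678, minus strand): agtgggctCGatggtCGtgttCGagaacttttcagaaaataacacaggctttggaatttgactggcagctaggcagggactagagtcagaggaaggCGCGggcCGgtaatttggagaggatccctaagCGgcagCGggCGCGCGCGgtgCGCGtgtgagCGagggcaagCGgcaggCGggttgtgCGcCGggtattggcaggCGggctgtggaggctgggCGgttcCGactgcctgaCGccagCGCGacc
Fgf9 (chr14:58072436-58072685, plus strand): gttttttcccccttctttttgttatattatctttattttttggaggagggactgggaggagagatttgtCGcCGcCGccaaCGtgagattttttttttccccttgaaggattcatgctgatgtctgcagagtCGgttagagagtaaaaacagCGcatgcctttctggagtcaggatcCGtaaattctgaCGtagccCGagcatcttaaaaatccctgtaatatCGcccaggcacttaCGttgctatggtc

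The motif searched was CG, which reads the same on both strands. It occurred 21 times upstream of Tgfb1, 28 times upstream of Chrd, 25 times upstream of Smad1 and 11 times upstream of Fgf9. Windows were on hand for 23 of the 33 genes (32 windows, some genes having several starts), with a median of 20 CG pairs, against 6 over 32851 windows of all genes. At least 20 CG pairs stood in 53.1% of the pathway windows and in 17.9% of all windows, while at least 1 stood in 100% and 92.1%. The lowest counts were 1 in a window of the BMP receptor gene Bmpr1b and 2 in that of Fgfr2. The counts describe the reference sequence and not its methylation.

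The tissues shared most listed control peaks of these genes, and the shared peaks had tag ratios close to those of the libraries as a whole. Of the 66 V/SVZ control peaks, 38 (57.6%, Wilson 95% interval 45.6 to 68.8%) shared at least 1 bp with one of CP, beside 64.1% over all autosomes. The median CP to V/SVZ ratio at the 38 was 1.77 (interval of the median 1.49 to 2.33), beside 1.82. The ratio was above 1 at 34 of them, or 89.5%, beside 84.6% over all autosomes. In 33 of the 38 the interval held 1.82. No such share over all shared autosomal peaks stands beside this count, so it does not set these genes apart from others.

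The 5 shared peaks whose interval left out 1.82 belonged to Bmp7, Bmp4, Bmp6, Fgf12 and Fgf14. The peak with the most tags among the 22 genes lay 234 bp downstream of the end of Bmp7, whose product is a BMP ligand. It held 427 V/SVZ tags (chromosome 2, 172694396 to 172694954) and 371 CP tags, a ratio of 0.869 (0.754 to 1.00), and was the only one of the 5 below 1.82. The ratio was 5 (2.31 to 12.4) in Bmp4, another BMP ligand gene, with 8 V/SVZ tags and 40 CP tags. The CP peak of Bmp4 was 978 bp long and the V/SVZ peak 368 bp, and per kb of peak the ratio was 1.88. The 1.82 is a ratio of tags and not of tags per kb, so ratios per kb are not read beside it.

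In Bmp6, also a BMP ligand gene, a peak inside the gene held 21 V/SVZ tags and 76 CP tags, a ratio of 3.62 (2.21 to 6.18). In Fgf12 a peak inside the gene held 22 and 87 tags, a ratio of 3.95 (2.45 to 6.63). In Fgf14 a peak inside the gene held 29 V/SVZ tags and 116 CP tags, a ratio of 4 (2.64 to 6.23). Peak lengths matter for the last: the CP peak spanned 1269 bp and the V/SVZ peak 330 bp, and per kb the ratio was 1.04. The ratios per kb of the Bmp6 and Fgf12 peaks were 3.11 and 3.51. The lowest ratio among all 38, 0.700 (0.226 to 2.04), was that of a peak inside Fgfr2 with 10 V/SVZ tags and 7 CP tags, and its interval is wide.

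**Figure D2:**
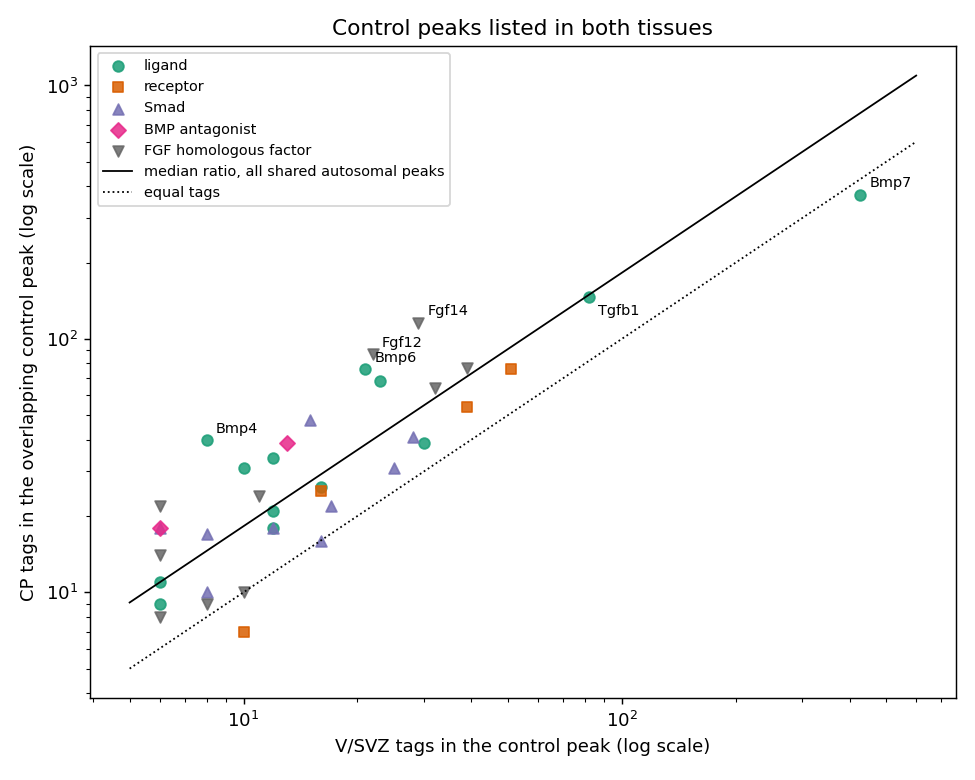
CP tags (y axis, log scale) against V/SVZ tags (x axis, log scale) at the 38 V/SVZ control peaks that overlap a CP control peak, 1 point per peak, by role. The solid line is the median ratio of all shared autosomal peaks (1.82) and the dotted line equal tags; the Bmp7 peak lies below the dotted line and the named peaks of Bmp4, Bmp6, Fgf12 and Fgf14 lie above the solid one.

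Direct peaks were carried by 10 of the 22 genes in the V/SVZ over CP list (45.5%; background 56.3% of 12631 autosomal genes with a control peak) and by 10 in the CP over V/SVZ list (45.5%; background 56.2%). Bmp6, Bmp7, Fgf12, Fgfr1, Smad1 and Smad4 were in both lists (6 genes, 27.3%, against 32.2% of all). Bmp2, Bmpr1a, Fgfr2 and Smad2 had V/SVZ over CP peaks alone, and Bmp4, Fgf14, Nog and Smad7 had CP over V/SVZ peaks alone. The remaining 8 genes had neither (36.4%, against 19.7%): Tgfb1, Tgfb2, Bmp5, Chrd, Fgf1, Fgf2, Fgf3 and Fgf9. A gene with more control peaks had a direct peak more often: the background for the V/SVZ over CP list rose from 30.8% of genes with 1 to 2 control peaks, through 53.5% with 3 to 5 and 76.9% with 6 to 10, to 96.6% with 11 or more. In these classes 3 of 9, 1 of 5, 2 of 3 and 4 of 5 pathway genes carried such a peak. For CP over V/SVZ the shares were 35% (2 of 9 pathway genes), 56.2% (1 of 5), 70% (2 of 3) and 88.5% (5 of 5).

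The genes had 31 V/SVZ over CP peaks and 25 CP over V/SVZ peaks, so that 55.4% of their direct peaks were in the V/SVZ direction, beside 54.3% of the 39892 direct peaks on the autosomes. The split among the named genes differed by role. Ligand genes had 16 and 9, all in BMP ligands; receptor genes had 7 and 2; Smad genes had 6 and 6; the BMP antagonists had 0 and 2; and the FGF homologous factors had 2 and 6. Bmp7 alone gave 9 and 4, and without it the BMP ligands had 7 and 5 and all genes 22 and 21. Peaks of 1 gene are not independent, and no test was made of these splits. They cover 11 of 14 ligand, 3 of 8 receptor and 4 of 7 Smad genes, as the rest were named in no list. Direct peaks without a gene name numbered 12 and 3 in the interval of Smad3 and Smad6. Around Smad5 they numbered 3 and 1. Whether those peaks belong to these genes was not tested, so the even Smad split holds for the named Smad genes alone.

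**Figure D3:**
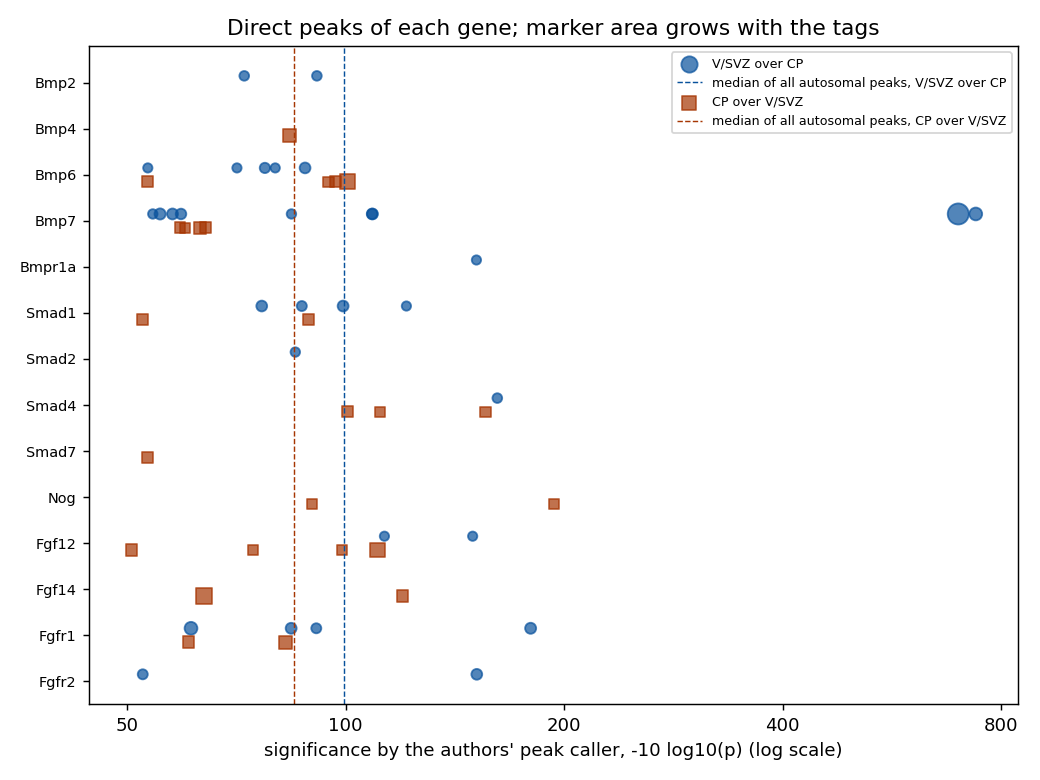
Significance by the authors' peak caller (x axis, log scale, 10 times the negative log10 of its p) of every direct peak of the 14 genes that have one (y axis). Circles are V/SVZ over CP and squares CP over V/SVZ peaks, marker area grows with tags, and dashed lines are the medians of the autosomal lists (99.4 and 84.9); only the 2 Bmp7 peaks of 698.64 and 738.58 stand beyond 193.9.

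BMP ligand genes held 25 of the 56 direct peaks, more than any other role, and Bmp7 held the 2 most significant. Its first V/SVZ over CP peak lay inside the gene, 14.2 kb from the start (chromosome 2, 172751394 to 172751731), and held 41 tags with a significance of 738.58 and an authors' fold of 17.08. No CP control peak was listed there. The peak of 427 tags downstream of the gene was the next, with 698.64 and a fold of 2.73, and CP held 371 tags there. The other 7 V/SVZ over CP peaks of Bmp7 held 7 to 19 tags. Its most significant CP over V/SVZ peak held 14 tags (172748928 to 172749235; 64.12), at a place with no listed V/SVZ control peak. Peaks of opposite direction thus lay close together in the gene, the closest pair 654 bp apart.

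Bmp6 had 5 V/SVZ over CP peaks of 6 to 16 tags and 4 CP over V/SVZ peaks of 11 to 76 tags. The most significant in the first direction held 16 tags (chromosome 13, 38461988 to 38462249; 87.92), although CP held 26 tags in its control peak there, a ratio of 1.63 (0.839 to 3.24). The peak of 76 CP tags and 21 V/SVZ tags named above was the most significant in the other (38577465 to 38577907; 100.56). Bmp2 had 2 V/SVZ over CP peaks, both of 8 tags and both inside V/SVZ control peaks, the more significant 2836 bp downstream of the gene (chromosome 2, 133391457 to 133391697; 91.28). The single CP over V/SVZ peak of Bmp4 was its control peak of 40 tags (chromosome 14, 47003465 to 47004442; 83.59). The gene Bmp5 had 1 CP control peak of 16 tags, 710 bp downstream, and nothing in the other 3 lists. BMP ligands thus included genes called in either direction, in both and in neither.

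The named TGF-beta ligand genes, Tgfb1 and Tgfb2, had no direct peak, and Tgfb3 was named in no list. Of all genes with 6 to 10 control peaks, the class of Tgfb1, 76.9% were called toward V/SVZ and 70% toward CP. In the class of Tgfb2, with 3 to 5, the shares were 53.5% and 56.2%. Beside its upstream peak, Tgfb1 had a peak inside the gene of 12 V/SVZ tags and 18 CP tags, a peak of 6 and 11 downstream, and a V/SVZ peak of 46 tags 9388 bp downstream with no listed CP partner. Tgfb2 had 3 CP control peaks of 8, 8 and 11 tags and none in V/SVZ. At such counts a peak listed in 1 tissue can lie under the fold at which the other list ends.

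**Figure D4:**
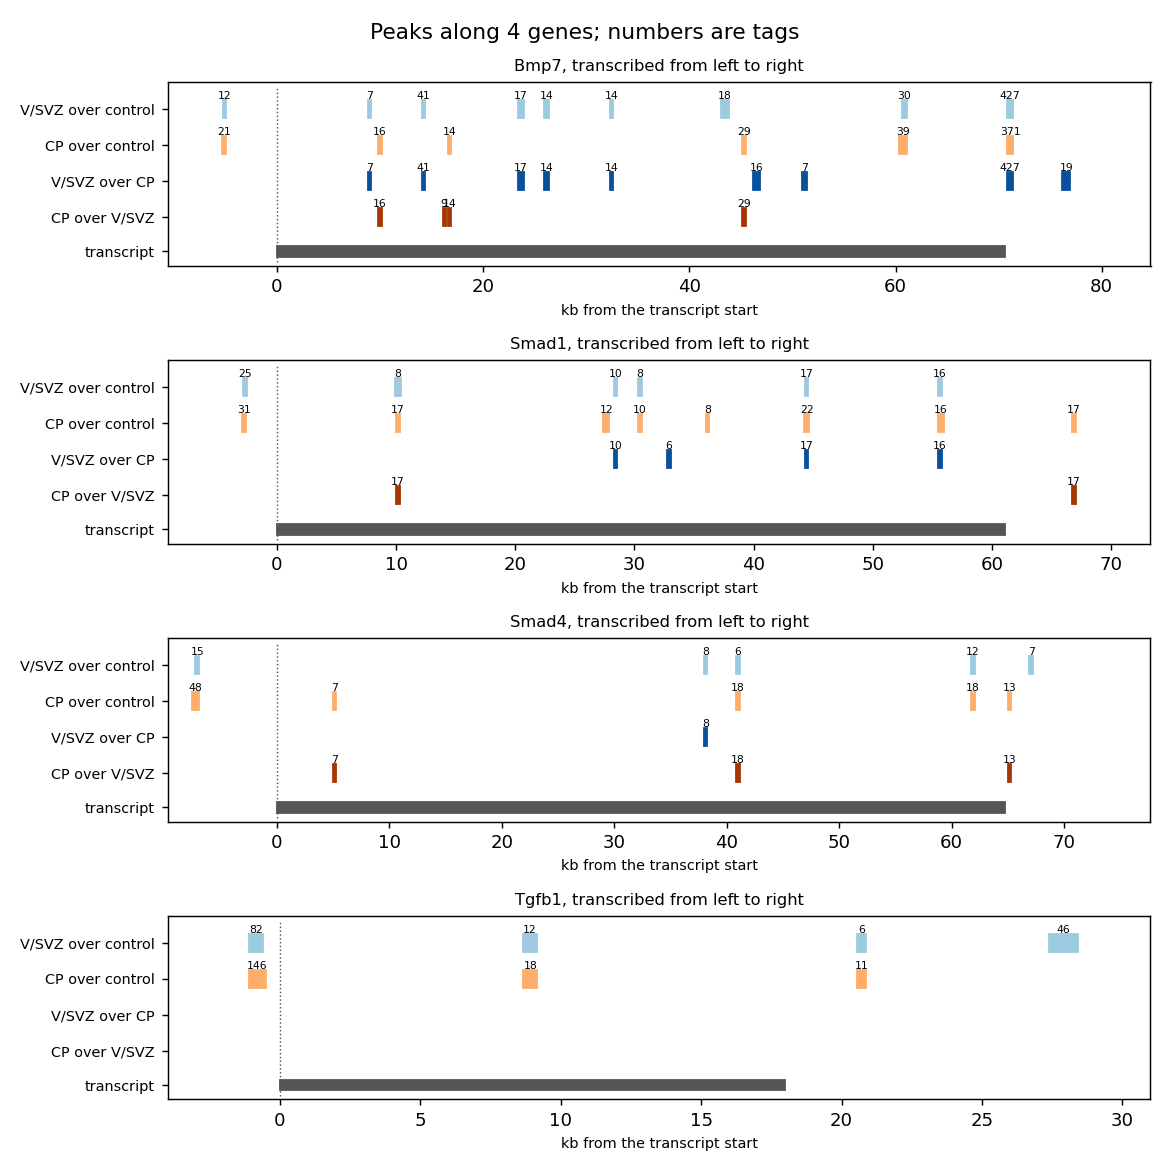
Peaks of the 4 lists (rows, each number giving the tags of a peak) along Bmp7, Smad1, Smad4 and Tgfb1, in kb from the transcript start (x axis); the grey bar is the transcript, placed from the distances in the files. Bmp7 has direct peaks of both directions inside the gene and its peak of 427 tags at the end of the gene, Tgfb1 has control peaks alone, and no peak covers a start.

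Only 3 of the 8 receptor genes were named in any list. Among these, Fgfr1 and Fgfr2, both receptor tyrosine kinases for FGFs, held nearly all of the listed peaks. Tgfbr1, Tgfbr2, Bmpr1b, Bmpr2 and Fgfr3 were named in none, although peaks without a gene name lay around all of them but Bmpr2. The receptors can therefore not be ranked by their peaks. Fgfr1 had 6 V/SVZ control peaks of 11 to 51 tags and 4 CP control peaks of 21 to 76 tags. Toward V/SVZ its most significant direct peak (chromosome 8, 26667973 to 26668328; 179.87) held 18 tags and lay in no listed control peak, as did 2 of the other 3 in that direction. Its most significant CP over V/SVZ peak held 44 tags (26684002 to 26684852; 82.72) and was only 596 bp from a V/SVZ over CP peak of 41 tags. Fgfr2 had 2 V/SVZ over CP peaks, of 16 tags (chromosome 7, 137384534 to 137385003; 151.62) and 10 tags, both inside the gene. Bmpr1a, a BMP receptor gene, had 1 peak of 6 V/SVZ tags (chromosome 14, 35273269 to 35273564; 151.45), in the V/SVZ control list and in the V/SVZ over CP list, and no CP peak. At 6 tags, the fewest of any V/SVZ peak, this is at the limit of what the list records.

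The 4 named Smad genes, of 7, carried small direct peaks: Smad1 and Smad4 in both directions, Smad2 toward V/SVZ alone and Smad7 toward CP alone. Smad1, a mediator of BMP signals, had 4 V/SVZ over CP peaks of 6 to 17 tags, all inside the gene, and 2 CP over V/SVZ peaks of 17 tags each. The most significant in the first direction held 6 tags and lay in no listed control peak (chromosome 8, 81890332 to 81890603; 121.27), and the most significant in the other lay 5649 bp downstream of the gene (81856350 to 81856648; 88.78). In 1 of the V/SVZ over CP peaks V/SVZ had 17 tags and CP 22 in its control peak, a ratio of 1.29 (0.656 to 2.60), and in another both had 16. Upstream of Smad1 a control peak had 25 V/SVZ tags and 31 CP tags. Smad2, a mediator of TGF-beta signals, had 1 V/SVZ over CP peak of 7 tags (chromosome 18, 76428286 to 76428591; 85.24) and 1 CP control peak of 12 tags 7942 bp downstream.

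Smad4, the partner shared by both branches, had direct peaks of both directions. It had 3 CP over V/SVZ peaks, of 13 tags 271 bp downstream (chromosome 18, 73798125 to 73798395; 155.92), of 18 tags inside (6 in V/SVZ, ratio 3, 1.14 to 9.23) and of 7 tags inside. Its 1 V/SVZ over CP peak held 8 tags (73825108 to 73825454; 161.82), 2563 bp from a peak of the opposite direction. A control peak 6907 bp upstream had 15 V/SVZ tags and 48 CP tags and was in neither direct list. Smad7, an inhibitor of the pathway, had 1 CP over V/SVZ peak of 17 tags, 1777 bp upstream (75524887 to 75525241; 53.32), and a shared peak inside the gene of 28 V/SVZ tags and 41 CP tags.

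Of the BMP antagonist genes, Nog, which encodes noggin, was listed in CP alone. Its 2 CP peaks lay 5140 and 8569 bp downstream with 11 and 10 tags, and both were also CP over V/SVZ peaks, the first (chromosome 11, 89156557 to 89156811) with a significance of 193.9, the highest of any CP over V/SVZ peak of the 22 genes, and an authors' fold of 33.62. Chrd had a shared peak inside the gene of 13 V/SVZ tags and 39 CP tags, and no direct peak.

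The secreted FGF ligand genes Fgf1, Fgf2, Fgf3 and Fgf9 had 3 V/SVZ and 5 CP control peaks and no direct peak. With 1 to 3 control peaks each, they fall in the classes where 30.8% to 56.2% of all genes were called in a given direction. Of the other secreted FGF ligand genes with control peaks, Fgf6, Fgf18, Fgf22 and Fgf23 had direct peaks, and Fgf4, Fgf17 and Fgf21 had none. The 3 shared peaks of Fgf1, Fgf3 and Fgf9 held more CP tags, as did 84.6% of shared autosomal peaks. CP had 68 against 23 inside Fgf3 (ratio 2.96, 1.82 to 4.97) and 31 against 10 upstream of Fgf9 (3.10, 1.48 to 7.09). Upstream of Fgf1 it had 34 against 12, as given above. All 3 intervals hold the median ratio of 1.82, that of Fgf3 at its lower end. Fgf2 had 1 CP control peak, of 8 tags. The homologous factors Fgf12 and Fgf14 held 14 V/SVZ and 16 CP control peaks, all inside the genes. Fgf12 had 4 CP over V/SVZ peaks of 8 to 87 tags, the most significant with 87 (chromosome 16, 28176572 to 28177126; 110.78), and 2 V/SVZ over CP peaks of 6 tags each, the more significant at 28223590 to 28223808 (149.64). The most significant CP over V/SVZ peak of Fgf14 held 24 tags (chromosome 14, 124824440 to 124824996; 119.78), where no V/SVZ control peak was listed. A second was the long peak of 116 tags described above.

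Direct peaks were set against the control lists because the 2 kinds of list were called separately. Of the 31 V/SVZ over CP peaks, 23 overlapped a V/SVZ control peak, 6 of them also a CP control peak, and 8 (25.8%) overlapped neither, against 14.9% on all autosomes. In 3 of the 6, in Bmp6 and Smad1, CP had more tags than V/SVZ. The same held for 37.8% of such peaks on all autosomes, so a V/SVZ over CP call does not mean more V/SVZ tags in these unscaled counts. Of the 25 CP over V/SVZ peaks, 20 overlapped a CP control peak, 7 of them also a V/SVZ control peak, and 5 (20%) neither, against 21.7%. In all 7 CP had more tags, by 2.13 to 5 times. The same held for 4795 of the 4796 such peaks on all autosomes, with a median ratio of 3.64. More CP tags thus come with this list and are not particular to these genes.

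The other 11 genes were named in none of the 4 lists: Tgfb3, Tgfbr1, Tgfbr2, Bmpr1b, Bmpr2, Smad3, Smad5, Smad6, Fgf8, Fgf10 and Fgfr3. They include 4 of the 5 TGF-beta and BMP receptor genes. A missing name is not a missing peak. Between the nearest named genes on either side (neighbours from RefSeq, GRCm38.p6), the files held peaks with no gene name for 9 of the 11. Between the peaks of Gadl1 and Rbms3, where Tgfbr2 is the only protein-coding gene, there were 9 V/SVZ and 13 CP control peaks in 511 kb (chromosome 9, 115994269 to 116505219, mm9). Between Col15a1 and Alg2, around Tgfbr1, there were 4 and 2, and between Tacc3 and Letm1, around Fgfr3, 1 and 1. Around Bmpr2 and Tgfb3 there were none. Whether these peaks lie inside the genes was not tested, since no mm9 annotation was used, and counts above hold for the named genes.

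Of 93 other genes of the same pathways, 66 had a control peak on the autosomes; 39 (59.1%) were called in the V/SVZ direction and 43 (65.2%) in the CP direction, against 56.3% and 56.2% of all genes. Ligands among them did so in 7 and 10 of 19, receptors in 5 and 8 of 10, and extracellular regulators in 9 and 10 of 13. Intracellular mediators did so in 14 and 12 of 18, and target transcription factors in 4 and 3 of 6. None of these shares was matched for the number of control peaks, with which calls rise. The most significant V/SVZ over CP peaks lay in Il17rd, an inhibitor of FGF signalling (40 tags in V/SVZ, 13 in CP), Skil, a repressor of Smads (26 and 10), the latent TGF-beta binding protein gene Ltbp2 (22), Bmp8b (358 and 417), the receptor gene Acvr1 (6) and Sos1 (10). In the CP direction the leading peaks were at Smad9 (23 tags in CP), Fgf6 (108 in CP, 21 in V/SVZ), Acvrl1 (16), Ltbp4 (28), the protease gene Bmp1 (161 and 42) and the phosphatase gene Ptpn11 (40). The Fgf6 peak overlapped a transcript start (chromosome 6, 126965217 to 126966007), while no peak of the 22 genes above was counted over one.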

How the data were processed

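Peaks came from 4 deposited tables, 1 over control and 1 over the other tissue for each library. Per the submitters' processing notes, CASAVA 1.8 and Bowtie were used with build mm9; per the file headers, the columns follow the MACS peak caller, with no version or settings named. In the deposited tables tags are a raw count of reads per peak. Significance is the authors' score, 10 times the negative log10 of p; fold enrichment is the authors' ratio, at most 50 in the control tables and used only within a list; false discovery rates are the authors' values in percent. Each control table holds 65535 lines and fewer peaks than its highest peak number; the lowest folds are 11.48 (V/SVZ) and 14.71 (CP), so a region missing from one may lie below its end.

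From these, lines were reduced to 1 per region and gene on chromosomes 1 to 19 with Python 3.11.15, pandas 2.3.3 and scipy 1.17.1. Overlap meant at least 1 bp, and the partner with the largest overlap gave the ratio. Transcript starts and ends were computed from deposited distances. Shares carry Wilson and ratios exact binomial 95% intervals, which cover counting error only. The overlap, interval and boundary functions were tested on simulated data. No test between tissues was possible.

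The 33 members, their roles and the list of 93 other genes were chosen with earlier results of these data known. Values are given for genes with a peak within 1 kb upstream of a start, the most significant direct peak of each gene and direction, the gene with the most control peaks in a role, the shared peaks of lowest and highest ratio with at least 20 tags, and the 6 other genes with the most significant peaks in each direction. Shared peaks whose interval left out the median of all, and the lowest ratio of all, were named after their values were seen. Sequences are from RefSeq, GRCm38.p6, for genes with a shared upstream control peak, outside chromosome 18, that had an entry.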

Additional observations from a re-analysis of the deposited data

How the results depend on the processing

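The 8 results were recomputed under 23 alternative values, of which 20 stayed within 1.5 times of the reported count or inside its interval. An alternative kept direct peaks at or above the median significance of their list, about 50% of each list. The share of all genes it kept was not computed. With this cut the pathway genes kept 11 of 31 V/SVZ over CP peaks, in 7 genes. They kept 12 of 25 CP over V/SVZ peaks, in 6 genes. The other alternatives (peaks inside the gene or within 5 kb, direct peaks within a control peak, control lists from the same lowest fold of 14.71, overlap of 50% of each peak, tags per kb) moved no count by that much. Per kb the median ratio at shared peaks was 1.53. Reading counts against genes with as many control peaks changes the background and not the count, and stands in the text. No replicate could be left out. No paired analysis was possible because each tissue has 1 library. Most of these peaks held under 20 tags, which limits every ratio.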

Other observations

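The interval that holds Smad3 and Smad6, a receptor-regulated and an inhibitory Smad gene, held the most control peaks without a gene name among the intervals of the 11 unnamed genes; it was picked out after its values were seen. Between the peaks of Aagab and Lctl (chromosome 9, 63496710 to 63957964, mm9), 461 kb with no other protein-coding gene in RefSeq GRCm38.p6, there were 25 V/SVZ and 22 CP control peaks. Direct peaks numbered 12 for V/SVZ over CP and 3 for CP over V/SVZ, and the largest peak held 94 tags. Fgf8, a secreted FGF that patterns the forebrain, shares its interval of 101 kb between Fbxw4 and Oga with the protein-coding gene Npm3. That interval held 3 V/SVZ and 4 CP control peaks and 4 and 2 direct peaks, none of them with a gene name. Where in these intervals the peaks lie relative to the genes was not tested.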
